A study of Homo sapiens with 6 samples.

Results

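The genes described here are 9 neighbours of EGFR on the short arm of chromosome 7: VSTM2A, SEC61G, LANCL2, VOPP1, PSPH, CCT6A, SUMF2, PHKG1 and CHCHD2, out of 20163 protein-coding genes in the annotation. They were chosen from the called peaks and the local background of these same libraries, so their peak counts and background values are a description and were not tested. A peak belonged to a gene when it overlapped the gene body with 10 kb added to each side by at least 1 bp, on the hg19 build of the human genome. The first and the last gene lie 1564 kb apart end to end, and the windows cover 420 kb together.

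In order along the chromosome, the gene bodies lie at chr7:54610018-54638773 for VSTM2A, chr7:54819943-54827667 for SEC61G, chr7:55433030-55501430 for LANCL2 and chr7:55503749-55640681 for VOPP1. After a gap of 438 kb come PSPH at chr7:56078744-56119297, CCT6A at chr7:56119378-56131682, SUMF2 at chr7:56131695-56148363, PHKG1 at chr7:56147976-56160689 and CHCHD2 at chr7:56169266-56174169. VSTM2A, LANCL2, CCT6A and SUMF2 are on the plus strand and the other 5 on the minus strand.

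ATAC-seq, in which the Tn5 transposase cuts and tags accessible DNA, was performed in 3 esophageal cell lines with 2 libraries each. HET-1A is a non-cancerous esophageal epithelial line, and KYSE-30 and KYSE-150 are lines of esophageal squamous cell carcinoma (ESCC). HET-1A was kept in BEBM medium with its additives and both carcinoma lines in RPMI/F12 with 5% FBS, so line and medium cannot be told apart. The labels name no treatment, and nothing in the labels says that the 2 libraries of a line came from separate cultures, so the spread between them may be technical.

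EGFR is known to be amplified in some squamous carcinomas, where the amplified segment can take in neighbouring genes of unrelated function. SEC61G is a subunit of the channel that passes proteins into the endoplasmic reticulum, PSPH makes serine, CCT6A belongs to a folding chaperone, PHKG1 is a kinase of glycogen breakdown and CHCHD2 is a mitochondrial protein. Accessible DNA is usually found at active start sites and at enhancers, and AP-1, a dimer of FOS and JUN family proteins, is a common factor at epithelial enhancers.

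The 6 peak lists differed widely in length. HET-1A library 1 held 168 peaks and library 2 held 15979, KYSE-30 library 4 held 1255 and library 6 held 11671, and KYSE-150 libraries 7 and 8 held 547 and 259. The libraries are called by these numbers below, 1 and 2 for HET-1A, 4 and 6 for KYSE-30 and 7 and 8 for KYSE-150. Read totals are unknown from peak lists. The genome background of a library, the smallest background that MACS2 used for any of its peaks, lay between 1.49 and 3.34 tags per 200 bp, a ratio of 2.25. The lists from HET-1A library 1, KYSE-150 library 7 and KYSE-150 library 8 are short, and a gene without a peak there is not shown to be closed. Of 5 epithelial marker genes (KRT5, KRT14, KRT8, KRT18 and TP63), 2 had a peak within 3 kb of a start site in library 2, 1 had one in library 6 and 0 in the other 4 libraries, so the lists hold little with which to check the epithelial label.

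Sequences of 3 start-site or near-start peaks are given first, since these peaks were shared by both KYSE-30 libraries and hold recognisable promoter elements. All coordinates are hg19, each sequence reads 5′ to 3′ on the strand stated, and in these 3 sequences untranslated and coding exon was trimmed off. For LANCL2, chr7:55433923-55434085 on the plus strand is the start of an intron, with the cyclic AMP response element (CRE) TGACGTCA in capitals. For PSPH and CCT6A, which are transcribed away from each other, chr7:56119298-56119377 on the plus strand is the 80 bp between both genes, with CCAAT in capitals. These 80 bp lie inside the peak of library 6 and outside that of library 4, which ends at chr7:56119270. For CHCHD2, chr7:56174209-56174409 on the minus strand is centred on the summit and has the ETS element ACTTCCGG, which reads CCGGAAGT on the other strand, and CCAAT in capitals.
LANCL2: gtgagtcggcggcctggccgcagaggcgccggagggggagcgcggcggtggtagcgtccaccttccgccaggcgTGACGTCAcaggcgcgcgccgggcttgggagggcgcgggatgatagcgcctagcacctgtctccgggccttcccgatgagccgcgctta
PSPH and CCT6A: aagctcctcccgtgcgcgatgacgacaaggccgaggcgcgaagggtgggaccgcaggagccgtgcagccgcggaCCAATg
CHCHD2: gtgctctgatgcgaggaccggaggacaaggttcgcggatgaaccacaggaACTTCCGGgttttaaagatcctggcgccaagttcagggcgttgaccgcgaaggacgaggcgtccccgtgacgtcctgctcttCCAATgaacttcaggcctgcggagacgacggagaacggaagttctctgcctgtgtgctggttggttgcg

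A second set shows the AP-1 core, TGACTCA or its reverse complement TGAGTCA, in peaks along VOPP1 in library 6. It is shown because the motif recurred from peak to peak along this 1 gene, which was noticed after the values were seen. Each stretch is 27 bases on the minus strand, the strand of VOPP1, with the core in capitals. Site 3 overlaps an untranslated exon of a VOPP1 transcript, and the other sites lie outside exons. Going down the gene, the sites lie at chr7:55638753-55638779, chr7:55623961-55623987, chr7:55620490-55620516, chr7:55614673-55614699, chr7:55613491-55613517, chr7:55602248-55602274 and chr7:55572379-55572405.
Site 1: attctctgagTGACTCAccatagagaa
Site 2: cctggtggaaTGAGTCAgggtcattgt
Site 3: catggctgagTGACTCAgcccatggga
Site 4: gctgtgttgcTGAGTCAtctctgctct
Site 5: agtgctggtgTGAGTCActgcacccag
Site 6: cagagagaatTGAGTCAgaattgggga
Site 7: actggctgtgTGAGTCAtgaatcagcc

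The KYSE-30 libraries held most of the peaks of these genes. Library 4 had 7 peaks in the windows, library 6 had 16 and library 2 (HET-1A) had 4, while library 1 (HET-1A) and libraries 7 and 8 (KYSE-150) had 0 each. By gene, 8 of the 9 had a peak in library 4, where 6.53% of all protein-coding genes did. In library 6 it was 8 of 9, against 41.6% of all genes. In library 2 it was 5 of 9, against 51.1%, and in library 1 and libraries 7 and 8 it was 0 of 9, against 0.471%, 2.89% and 0.898%. A peak in both KYSE-30 libraries was found for 7 of 9 genes, against 5.28% of all genes, and for 3 of 9 genes, SEC61G, LANCL2 and SUMF2, with no peak in another line, against 0.739%. Since the genes were selected on these peaks, nothing is read from the comparison with all genes. Neighbouring windows overlap and share peaks from PSPH to CHCHD2 and between LANCL2 and VOPP1, so these counts are not independent between genes.

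**Figure D1:**
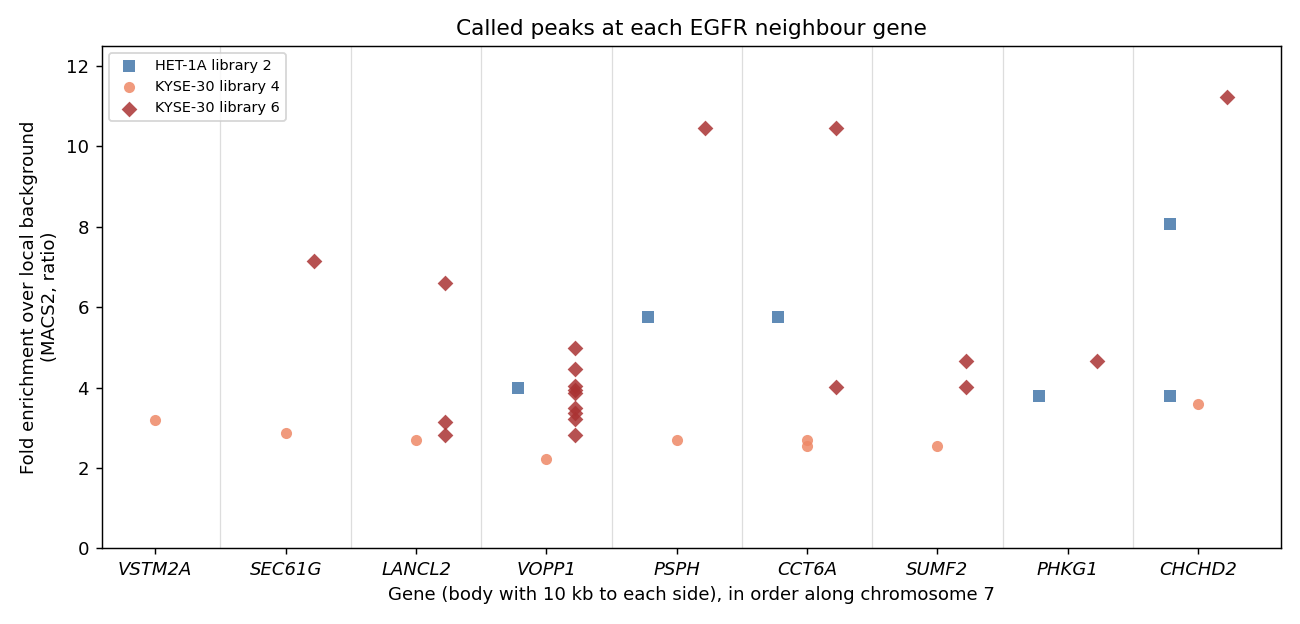
Fold enrichment over the local background (vertical axis, a ratio from MACS2) of every called peak in the window of each gene (horizontal axis, in order along the chromosome), with 1 point for each peak and library. The other 3 libraries had no peak. Points of KYSE-30 library 4 sit between 2.22 and 3.59, those of KYSE-30 library 6 between 2.82 and 11.2 and those of HET-1A library 2 between 3.78 and 8.06. A peak in overlapping windows is drawn once for each gene.

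At the peaks of these genes, the local background was higher in both KYSE-30 libraries than in library 2, the only other library with a value there. MACS2 compares the tags at a summit with either the genome background or the tags of the 10 kb around it, whichever is higher. Divided by the genome background of the library, the local background had a median of 6.22 over the 7 peaks of library 4, with a range of 5.25 to 12.6. In library 6 the median was 12.3 over 16 peaks, with a range of 7.10 to 15.2. In library 2 (HET-1A) it was 1.02 over 4 peaks, with a range of 1.00 to 1.20. A value of 1.00 means that MACS2 used the genome background, and the tags of the 10 kb are then unknown. The genes were chosen with this background known, so nothing is read from the distance between the KYSE-30 and HET-1A ranges. Over all peaks, the median relative background was 1.42 in library 4, 1.44 in library 6 and 1.45 in library 2. Only 69 peaks of library 4 (5.50%) and 70 of library 6 (0.600%) reached the lowest value seen at these genes in the same library.

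Tags at the summit add little to these medians and more to some single peaks. With the tags at the summit taken out, a calculation chosen after the values were seen, the medians were 5.93 in library 4 (KYSE-30) and 11.6 in library 6 (KYSE-30). Among the start-site peaks of library 6, the value fell from 8.36 to 6.47 at CHCHD2 and from 8.66 to 6.86 at PSPH and CCT6A. At SUMF2 it fell from 8.87 to 8.28. Other tags of a wide peak remain in the value. From tag counts, more copies of the DNA and more tags per copy cannot be told apart.

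The raised background reached beyond both ends of the gene group. In library 4 (KYSE-30), 49 of 68 peaks plotted around EGFR had a background of at least 5 times the genome background, from 2268 kb before the EGFR start to 1476 kb after it. In library 6 (KYSE-30) it was 59 of 64 peaks, from 2269 kb before to 1636 kb after. Farther along after EGFR the highest value was 4.22 in library 4 and 1.88 in library 6. Over the stretch plotted, the 17 peaks of library 2 (HET-1A) had 1.00 to 1.48, and the single peaks of libraries 7 and 8 (KYSE-150) had 1.00 and 2.43. All 9 genes lie inside the raised stretch, between 477 kb before and 1087 kb after the EGFR start.

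**Figure D2:**
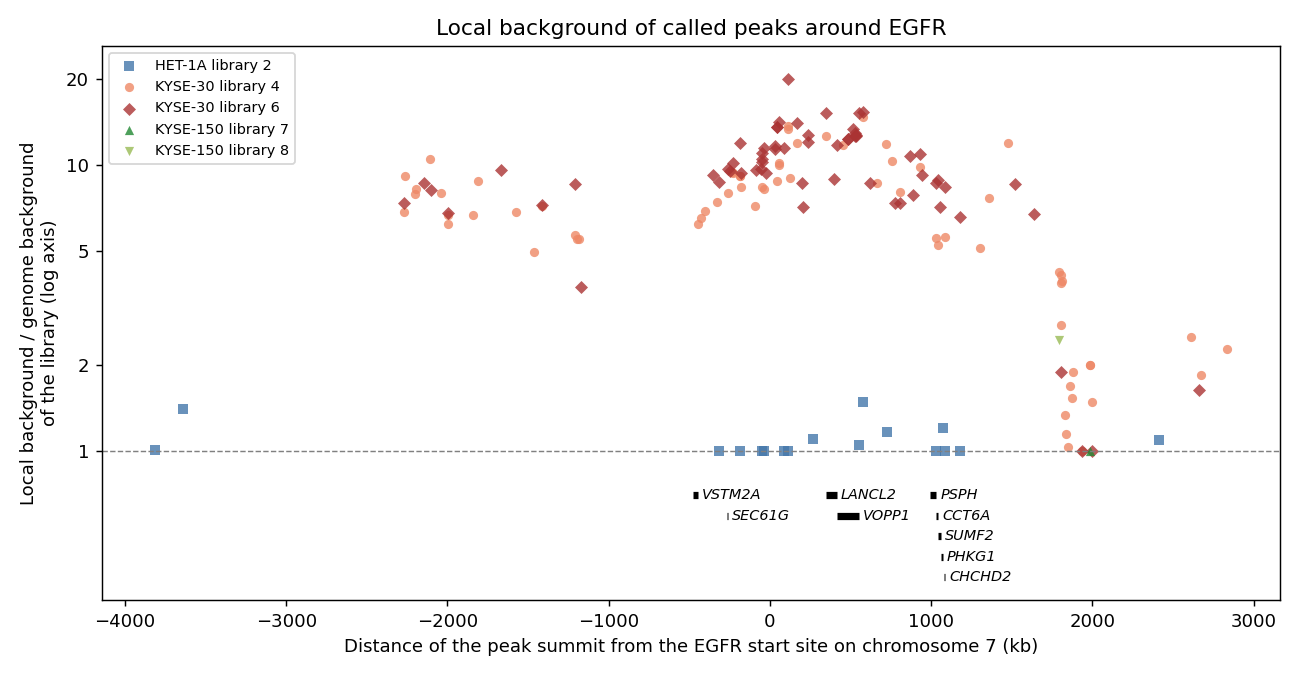
Local background of each called peak as a multiple of the genome background of its library (vertical log axis), against the distance of its summit from the EGFR start in kb (horizontal axis). Each point is 1 peak, black bars at the bottom mark the 9 gene bodies, and the dashed line is the genome background. Points of both KYSE-30 libraries lie between 5.25 and 15.2 at the 9 genes and fall past 1636 kb, and points of HET-1A library 2 lie between 1.00 and 1.48. HET-1A library 1 had no peak in the stretch drawn.

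LANCL2 and VOPP1, the first of these genes after EGFR, had the highest values. The mean of the 2 KYSE-30 medians was 12.2 at VOPP1 and 12.1 at LANCL2, then 8.81 at SEC61G, 7.09 at PSPH, 7.08 at CCT6A, 6.98 at CHCHD2 and 6.62 at SUMF2. VSTM2A had a peak in library 4 alone, with 6.22, and PHKG1 in library 6 alone, with 7.10. In library 6 the peaks of LANCL2 had 8.94 to 15.1 and those of VOPP1 11.7 to 15.2, with 1 peak shared. In library 4 each had 1 peak, with 12.6 at LANCL2 and 11.7 at VOPP1. PSPH, CCT6A, SUMF2 and CHCHD2 had 1 or 2 peaks in each KYSE-30 library, partly the same ones. The order of the genes thus rests on few peaks and was not tested. In library 6, single peaks of LANCL2 and of SUMF2, far apart in this order, overlapped in counting error. The LANCL2 peak farther into the gene had 8.94, with an exact 95% Poisson interval of 8.27 to 9.65, and the SUMF2 start peak had 8.87, with 8.21 to 9.58. These intervals cover counting error only and take the genome background as known.

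Outside the interval from VSTM2A to CHCHD2, few genes had such values in both KYSE-30 libraries. Likeness was measured by the lower of the 2 KYSE-30 medians, over the 1051 genes outside this interval with a peak in both libraries. Their median was 1.36. None of them reached LANCL2 or VOPP1, 1 reached SEC61G and 6 or 7 reached PSPH, CCT6A, SUMF2 or CHCHD2. The EGFR neighbours were chosen with this background known, so nothing is read from their place among the other genes. Inside the interval, EGFR with 10.1 in library 4 and 13.5 in library 6, ZNF713 with 9.82 and 10.7, NIPSNAP2 and MRPS17 with 9.82 and 10.1 and the gene ENSG00000249773 with 9.82 and 9.98 were also above SEC61G by this measure, and these genes partly share peaks. The nearest genes outside the interval, with at most 1 for each 1-Mb window, were KCNJ12 on chromosome 17 with 11.6 in library 4 and 9.35 in library 6, SHANK2 on chromosome 11 with 9.55 and 7.05, ANO1 on chromosome 11 with 17.5 and 5.97, NUPR2 on chromosome 7 with 5.59 and 8.36 and RFTN2 on chromosome 2 with 5.34 and 6.50. KCNJ12, SHANK2 and ANO1 also had 7.96, 21.5 and 9.94 in library 2 (HET-1A), where the EGFR neighbours had at most 1.20. NUPR2 is the gene after CHCHD2 and shares its peak.

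The peaks formed 20 merged regions in the 9 windows. Of these, 5 had a peak in both KYSE-30 libraries, and they are at SEC61G, LANCL2, PSPH with CCT6A, SUMF2 and CHCHD2. The regions at SEC61G, LANCL2 and SUMF2, 3 in all, had no peak in another line, and the other 2 also had a peak in library 2 (HET-1A). A further 11 regions were called in library 6 alone, 2 in library 4 alone and 2 in library 2 alone. Searched against the genome, 1 of the 20 regions, in an intron of VOPP1, had a similar sequence on chromosome 11, with 90.1% identity over 50.5% of the region.

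VSTM2A, which encodes a protein with an immunoglobulin-like V-set domain, lies farthest out. Its single peak, chr7:54640461-54640742, sits past the end of the gene and was called in library 4 (KYSE-30) with 49 tags and a fold enrichment of 3.18. No start site of VSTM2A had a peak in any of the 6 libraries.

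SEC61G had 1 peak in each KYSE-30 library and none elsewhere. The peak, chr7:54826802-54827560 over both libraries, covered the starts of SEC61G and of its divergent transcript SEC61G-DT. It had 56 tags and a fold enrichment of 2.88 in library 4 and 109 tags and 7.15 in library 6, over a relative background of 7.95 and 9.67. Among all peaks over a protein-coding start in the same library, 0.977% had a lower fold enrichment in library 4 and 72.5% in library 6, and 99.3% and 99.9% had fewer tags.

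LANCL2, a member of the LanC-like family named after bacterial enzymes, had its shared peak in an intron 955 bp after its start, where the sequence with the CRE above lies. The peak, chr7:55433551-55434413 in library 6, had 82 tags and a fold enrichment of 2.71 in library 4 (KYSE-30) and 154 tags and 6.60 in library 6 (KYSE-30), the most tags of any peak at these genes in each of the 2 libraries. The relative background was 12.6 and 15.1. No library had a peak over the start itself. The 300 bases around that start are 40% G and C, and 5.14% of all promoters are lower, whereas the intronic stretch printed is 73.6%. Beyond this, library 6 had a peak in another intron with a fold enrichment of 3.15 and one in the 3′ end of the gene with 2.82, which also falls in the VOPP1 window.

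VOPP1, an endolysosomal membrane protein also known as EGFR-coamplified and overexpressed protein, had the most peaks. It is also the longest of the 9 genes, at 137 kb. Library 6 (KYSE-30) had 9 in the window, of which 8 were in the gene body, with 61 to 97 tags, a fold enrichment of 3.21 to 4.98 and a relative background of 12.3 to 15.2. Library 4 (KYSE-30) had 1 peak, at another place in an intron, with 63 tags and a fold enrichment of 2.22 over a relative background of 11.7. None of the 8 was called in library 4, where at the VOPP1 background of 27.8 tags per 200 bp a call needed 53 tags and a fold enrichment of 1.88. Library 2 (HET-1A) had 1 peak, 354 bp before the canonical start in an exon of another VOPP1 transcript, with 17 tags and a fold enrichment of 4 over a relative background of 1.05. No KYSE-30 peak covered that place, and the first library 6 peak lies inside the gene with 94 tags and 4.03.

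**Figure D3:**
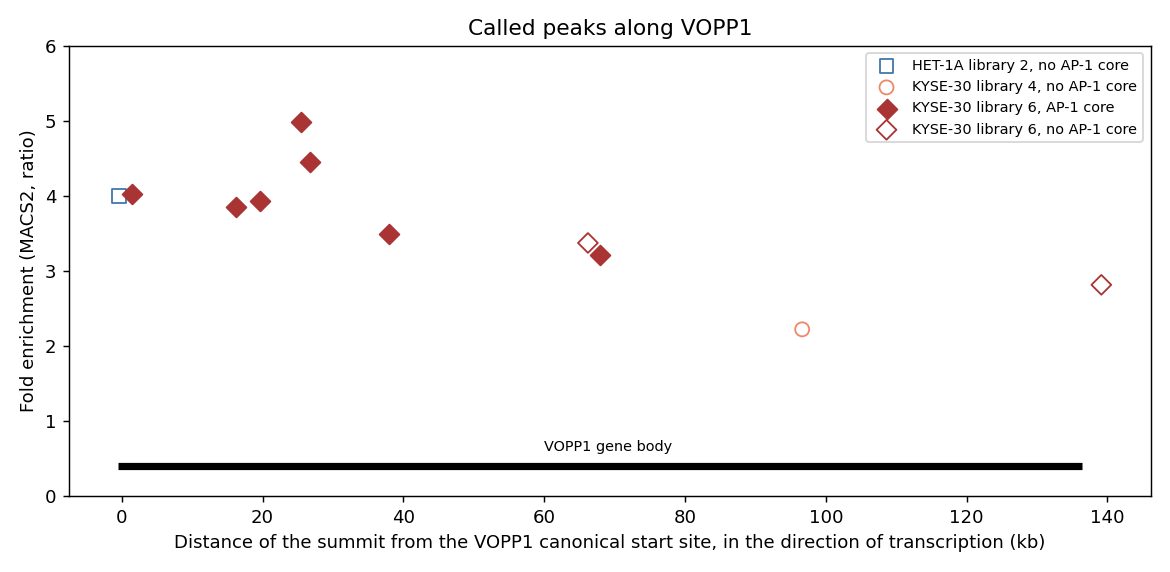
Fold enrichment (vertical axis, a ratio) of every called peak in the VOPP1 window against the distance of its summit from the canonical start in kb, in the direction of transcription (horizontal axis). Filled points have an AP-1 core within 100 bp of the summit, open points have none, and the black bar is the gene body. Filled points are all from KYSE-30 library 6, between 3.21 and 4.98, and the points of KYSE-30 library 4 at 2.22 and HET-1A library 2 at 4 are open.

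The AP-1 core was found within 100 bp of the summit in 7 of the 8 VOPP1 body peaks of library 6 (KYSE-30). The core centres lay 8 to 81 bp from the summit, 5 of them at 21 bp or less. The other 8 peaks of the same library at these genes held 0, among them the VOPP1 window peak at the 3′ end of LANCL2. The core was thus in 7 of the 9 VOPP1 window peaks and in 7 of all 16 peaks at these genes. Over the whole library, 26.2% of peaks held the core, with 40.4% among peaks over 3 kb from a protein-coding start and 6.11% among those nearer. Of the 8 VOPP1 peaks, 4 were over 3 kb from a start and 3 of these held the core. In library 4 (KYSE-30), 0 of 7 peaks at these genes held it against 10.4% of the library, and in library 2 (HET-1A), 0 of 4 against 21.7%. The match describes letters in the reference genome and says nothing about which factor was bound.

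PSPH, phosphoserine phosphatase of serine synthesis, and CCT6A, a subunit of the chaperonin that folds actin and tubulin, share 1 start-site peak, since 80 bp separate them. The peak, chr7:56118828-56119519 in library 6, had 24 tags in library 2 (HET-1A), 37 in library 4 (KYSE-30) and 144 in library 6 (KYSE-30). Its fold enrichment was 5.76, 2.70 and 10.4, over a relative background of 1.00, 5.52 and 8.66. In library 4 the called peak reached the start of PSPH and not that of CCT6A. The fold enrichment of library 2 lay between those of both KYSE-30 libraries, and its relative background was below both.

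SUMF2, a paralog of the enzyme that activates sulfatases, had a start-site peak, chr7:56131783-56132294 in library 6, with 33 tags and a fold enrichment of 2.53 in library 4 (KYSE-30) and 56 tags and 4.01 in library 6 (KYSE-30). The relative background was 5.25 and 8.87. This was the lowest fold enrichment over any protein-coding start in library 4, with 0% of such peaks lower, and 3.47% were lower in library 6. An intronic peak at chr7:56142047-56142334 was called in library 6 alone, with 53 tags and 4.67.

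PHKG1, the catalytic subunit of muscle phosphorylase kinase, had no KYSE-30 peak at its start. Its 1 library 6 peak is the intronic peak of SUMF2, which overlaps PHKG1 at their ends by 388 bp. Library 2 (HET-1A) had a peak 113 bp before the start, with 18 tags and a fold enrichment of 3.78. That peak was the smaller of the pair that library 2 had in the CHCHD2 window.

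CHCHD2, a protein of the mitochondrial intermembrane space, had the highest fold enrichment of the group in every library with a peak. The peak lies at chr7:56174014-56174541 in library 6. Its fold enrichment was 8.06 in library 2 (HET-1A), 3.59 in library 4 (KYSE-30) and 11.2 in library 6 (KYSE-30), with 34, 50 and 150 tags over a relative background of 1.00, 5.59 and 8.36. Among peaks over a protein-coding start in the same library, 98.2%, 4.89% and 98.8% had a lower fold enrichment. The ETS element and the CCAAT box printed above lay within 100 bp of the summit in all 3 libraries.

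How far HET-1A and KYSE-30 appeared to differ at the shared start sites depended on the scale. Relative to the genome background, the tags at the CHCHD2 summit were 10.2 in library 2 (HET-1A), 21.1 in library 4 and 101 in library 6. Relative to the local background they were 10.2, 3.78 and 12.1. At PSPH and CCT6A the values were 7.18, 15.6 and 96.8 on the first scale and 7.18, 2.83 and 11.2 on the second. Both KYSE-30 libraries were higher than library 2 on the first scale, and on the second 1 was lower and 1 higher. The 95% Poisson intervals of the tags themselves were 23.5 to 47.5 in library 2, 37.1 to 65.9 in library 4 and 127 to 176 in library 6 at CHCHD2.

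**Figure D4:**
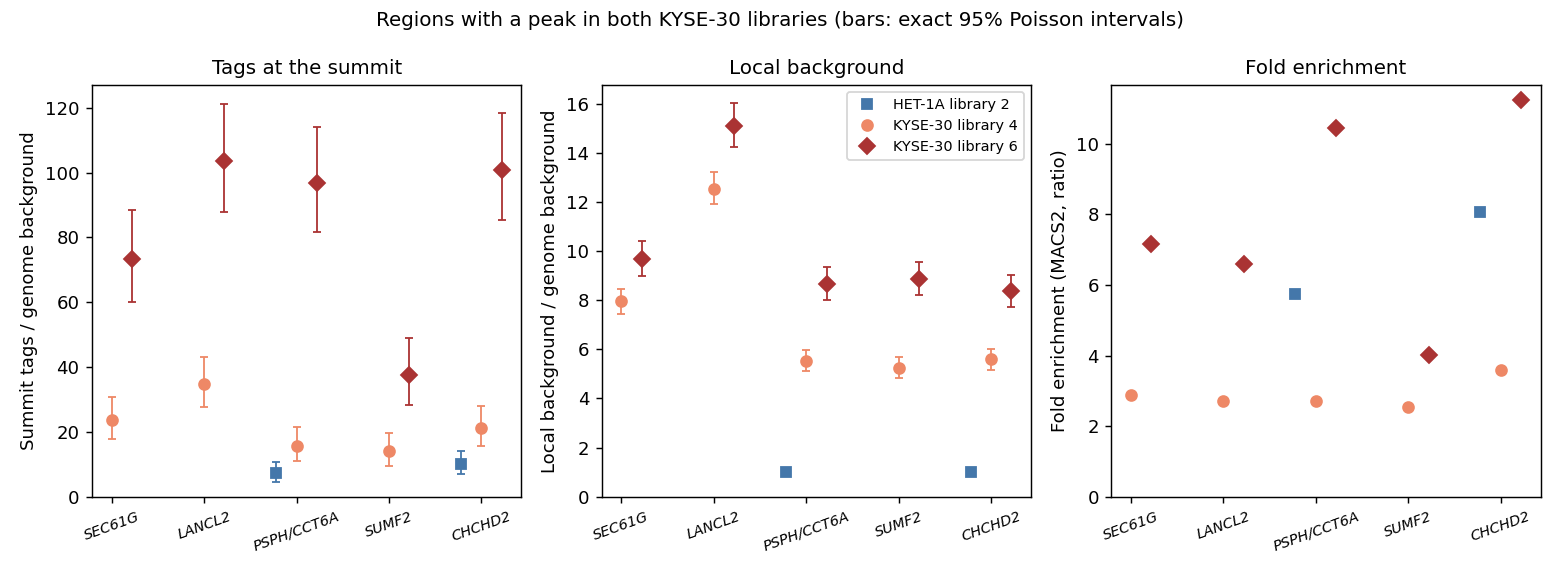
The 5 regions with a peak in both KYSE-30 libraries (horizontal axes), with summit tags over the genome background on the left, local background over the genome background in the middle and fold enrichment on the right (vertical axes, ratios). Points are single libraries and bars are exact 95% Poisson intervals of the tag counts. HET-1A library 2 has points at PSPH/CCT6A and CHCHD2 alone. There, KYSE-30 points lie above HET-1A library 2 in the left and middle panels. In the right panel HET-1A library 2 lies between both KYSE-30 libraries.

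A high local background lowered the fold enrichment that a call needed. At the genome background, the weakest p-value in the list corresponded to a 3.57-fold enrichment in library 4 (KYSE-30) and a 3.62-fold one in library 6 (KYSE-30). At 5 times that background it was 2.34 and 2.37, and at 10 times it was 1.95 and 2.02. At these genes, 6 of 7 peaks in library 4 and 5 of 16 in library 6 were below the fold enrichment needed at the genome background, against 0 of 4 in library 2 (HET-1A). The only library 4 peak above it was that of CHCHD2.

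Over the 300 bases from 250 before to 50 after the canonical start, read from hg19, the 9 promoters shared no single element. The GC box GGGCGG was in 5 of 9, against 61.8% of 19540 protein-coding promoters, and CCAAT was in 6 of 9, against 36.0%. The NRF1 core GCGCATGC was in 1, SUMF2, against 4.26%, the ETS element CCGGAAGT was in 1, CHCHD2, against 6.13%, and AP-1 and the CRE were in 0, against 3.55% and 2.71%. All were searched on both strands as exact letters, and neither the AP-1 nor the CRE letters contain the other.

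EGFR itself, between SEC61G and LANCL2, had 7 peaks in library 4 (KYSE-30), 9 in library 6 (KYSE-30) and 2 in library 2 (HET-1A), with a median relative background of 10.1, 13.5 and 1.00. The other protein-coding genes in the interval, SEPTIN14, ZNF713, NIPSNAP2, MRPS17 and 1 known only by its identifier, had 1 peak each in library 4, 2 to 4 in library 6 and 0 in library 2.

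The lines were not tested against each other. The smallest two-sided p that an exact permutation of 2 against 2 libraries allows is 0.33. For the short lists, those of KYSE-150 and HET-1A library 1, a difference in peak calls at these genes and in list length cannot be told apart. HET-1A library 2 had the longest list, with 4 of 15979 peaks in the windows. KYSE-30 library 6 had 16 of 11671 and library 4 had 7 of 1255. With 168 peaks per library, the windows held 0, 5 and 4 in that order. The part of list length in this was not tested.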

How the data were processed

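The authors trimmed and mapped the ATAC-seq reads (Bowtie2 2.3.3.1, hg19), marked duplicates (Picard 2.2.1), removed blacklisted regions (bedtools 2.7.1), kept fragments under 100 bp and called peaks per library with MACS2 2.1.0.20160309 at a q-value of 0.05. Each deposited list gives a score, a fold enrichment (a ratio of summit tags to local background, 1 added to each), −log10 of the p-value and −log10 of the q-value.

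Summit tags and local background were recovered from the fold enrichment and the Poisson p-value, within 0.001 of the deposited −log10 p, for 100% of peaks, after checks on simulated peaks. Local backgrounds above the genome background came to whole tags in 10 kb within 0.05 tags. Genes came from GENCODE 44 on hg19. Members and lists were chosen with earlier results of these data known. The genes named are the 9 members, the other protein-coding genes between them and the 5 most alike in relative background. Scripts ran in Python 3.11.15 (scipy 1.17.1 for the Poisson terms, pysam 0.24.0 for sequence, pandas 2.3.3, numpy 2.4.6, matplotlib 3.10.9). Alternatives were stricter q-values, equal list lengths, other windows and overlaps, and each library left out.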

Additional observations from a re-analysis of the deposited data

How the results depend on the processing

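A q-value under 0.01 or 0.001, the gene body alone, a per-gene median, the median background as divisor and the background without summit tags left every count within 1.5 times and every background within the spread of the KYSE-30 libraries. With 168 peaks per library, the windows held 4 peaks in KYSE-30 library 4, 5 in library 6 and 0 in HET-1A library 2, and 3 genes and 3 regions had a peak in both KYSE-30 libraries. Extending by 50 kb gave 12 peaks in KYSE-30 library 4. Assigning peaks to the nearest start gave 20, 28 and 8 peaks in KYSE-30 library 4, library 6 and HET-1A library 2. Where each peak had to be covered to 50%, 2 regions were shared by both KYSE-30 libraries and 1 of these had no peak in another line. Keeping only peaks above the fold enrichment needed at the genome background, an alternative added after seeing the data, left 1 peak in KYSE-30 library 4.

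Leaving out each library in turn, the regions called in the remaining KYSE-30 libraries numbered 5 to 16, and those without a peak in another line 3 to 14. Without HET-1A library 2 the latter were 5, without KYSE-30 library 4 they were 14 and without KYSE-30 library 6 they were 5. The genes with a peak numbered 7 to 8, and the peak counts and relative backgrounds of the libraries that were kept did not change. No paired analysis was possible because the groups share no library numbers and no test was run.

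Read totals are not in the lists, and the tags at places without a call are unknown.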
